A study of Mus musculus with 2 samples.

Results

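The 7 genes described here encode cytokines of type 17 immunity and parts of the receptors through which they signal: Il17a, Il17f, Il22, Il23a, Il23r, Il17ra and Il17rc. They were taken by symbol from the gene list of the deposited count matrices, which holds 27998 genes, and all 7 were found. They were read in every cell that passed the filters, by cell class, to set the lymphoid sources of the cytokines beside the stromal and epidermal cells that carry the receptors.

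The skin came from wild-type C57BL/6 mice aged 2 months and described as female. One library was made from dorsal skin of control animals and the other from dorsal skin that received imiquimod (IMQ) on its surface once a day for 5 days. Imiquimod is an agonist of a Toll-like receptor and is widely used to produce psoriasis-like inflammation in mice. Both skins were dissociated with collagenase D and DNase, cleared of dead cells and sequenced as droplet libraries of 3′ transcript ends. The number of animals behind each library is not given in the sources used here. With 1 library a group no test between the groups was possible, so differences below compare these libraries. All intervals are exact, at 95%, and cover counting error only.

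IL-17A and IL-17F are secreted as dimers, and IL-17RA pairs with IL-17RC to bind them on epithelial and stromal cells. That receptor passes its signal through the adaptor Act1 to NF-kB and to proteins that stabilise mRNA, which raises chemokines, antimicrobial peptides and acute-phase proteins. IL-23, built from the Il23a and Il12b products, acts through IL-23R on lymphocytes, and these lymphocytes make IL-17A, IL-17F and IL-22. In mouse skin the best known of them are gamma delta T cells of the dermis.

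In the GENCODE M21 annotation of GRCm38, each of the 7 is a protein-coding gene that overlaps 0 other genes. Il17a lies on chromosome 1 from 20730905 to 20734496 on the plus strand. Its neighbour in sequence and function Il17f lies on the same chromosome from 20777146 to 20790617 on the minus strand. Il23r (67422932 to 67491855, minus), Il17rc (113471427 to 113483140, plus) and Il17ra (120463247 to 120487559, plus) are on chromosome 6. Il22 (118204942 to 118210047, plus) and Il23a (128296139 to 128298752, minus) are on chromosome 10. The promoters of 3 members found in T cells are printed here, searched for the core letters AGGTCA that many nuclear receptors recognise. Each run holds the 250 bases before the RefSeq start of the gene (RefSeq, GRCm38.p6), 5′ to 3′ along the gene, and capitals mark matches to AGGTCA or to the AP-1 letters TGANTCA, searched on both strands. A match on the other strand of AGGTCA reads TGACCT. The windows are chr1:20730655-20730904 (plus) for Il17a, chr1:20784271-20784520 (minus) for Il17f and chr6:67491856-67492105 (minus) for Il23r. The Il17f window lies inside the annotated span of that gene, and its far end overlaps an exon of another annotated transcript.
Il17a: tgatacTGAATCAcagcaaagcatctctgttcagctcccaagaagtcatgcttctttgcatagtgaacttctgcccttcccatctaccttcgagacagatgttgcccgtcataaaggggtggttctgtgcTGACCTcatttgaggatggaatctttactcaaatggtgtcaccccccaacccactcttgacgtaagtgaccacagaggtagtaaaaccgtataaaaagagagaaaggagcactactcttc
Il17f: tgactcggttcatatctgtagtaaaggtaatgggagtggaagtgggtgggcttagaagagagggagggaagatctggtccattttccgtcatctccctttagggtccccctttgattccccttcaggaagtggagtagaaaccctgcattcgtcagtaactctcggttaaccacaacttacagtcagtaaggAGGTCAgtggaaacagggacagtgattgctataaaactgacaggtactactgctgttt
Il23r: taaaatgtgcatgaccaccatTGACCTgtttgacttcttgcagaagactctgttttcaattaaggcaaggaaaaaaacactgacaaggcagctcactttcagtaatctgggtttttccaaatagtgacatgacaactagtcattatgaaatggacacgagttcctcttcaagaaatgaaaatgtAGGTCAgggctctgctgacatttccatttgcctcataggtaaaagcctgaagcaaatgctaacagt
AGGTCA was present once in Il17a, 120 to 115 bases before the start on the opposite strand, and once in Il17f, 58 to 53 bases before the start on the strand of the gene. In Il23r it was present on the opposite strand at 229 to 224 and on the gene's own strand at 66 to 61 bases before the start. TGANTCA, which reads the same on both strands, was present in Il17a at 244 to 238 bases before the start and in neither other window. The STAT letters TTCNNNGAA were in none of the 3. Of all 32851 promoters of that length in the table, 14.0% held AGGTCA, 6.75% held TGANTCA and 7.02% held TTCNNNGAA. These matches are letters only. The table has no entry for Il17ra or Il23a. The windows of Il22 and Il17rc, which run past the annotated gene start, are not printed. Neither held a match to the nuclear receptor, AP-1 or STAT letters. The printed windows are thus the only member windows with a match to the nuclear receptor letters.

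The control library held 10857 barcodes and 123088680 UMIs (unique molecular identifiers, 1 per captured transcript), of which 10297 cells were kept. The IMQ library held 9414 barcodes and 144054978 UMIs, of which 8499 cells were kept. Both libraries listed 23 barcodes in common, 20 of them among the cells kept. Median depth was 9596 UMIs a cell in the control and 12650 in the IMQ library. Clusters were assigned to 18 classes by marker genes, and a class is called "-like" for that reason. T cell-like cells made up 3.34% of the control cells (344) and 5.38% of the IMQ cells (457), and UMIs of at least 1 Cd3 chain were found in 76.7% and 89.9% of them. Neutrophil-like cells numbered 7 in the control and 287 in the IMQ library, keratinocyte-like cells 1759 and 2202, and fibroblast-like cells 7029 and 3753.

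The cytokines Il17a, Il17f and Il22 were found in the T cell-like class and all 3 were higher there in the IMQ library. Over all kept cells Il17a had 1250 UMIs in the control and 12292 in the IMQ library. Il17f had 392 and 6371, and Il22 had 35 and 4144. The lymphoid classes (T, natural killer and type 2 innate lymphoid) held 92.7% of the Il17a UMIs in the control (interval 91.1 to 94.1) and 95.9% in the IMQ library (95.5 to 96.2). They held 88.5% and 95.2% of Il17f, 77.1% and 92.6% of Il22, and 83.1% and 85.1% of Il23r. Within the lymphoid classes every such UMI came from T cell-like cells: natural killer-like cells (61 and 47) and type 2 innate lymphoid-like cells (29 and 10) had 0 UMIs of Il17a, Il17f, Il22 and Il23r in both libraries. At a floor of 3 counts, 0 in 61 natural killer-like cells still allows a share of cells with a UMI of up to 4.92%, and the exact interval reaches 5.87%. The type 2 innate lymphoid-like cells are too few for a close limit.

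Il17a, the founding cytokine of the family, stood at 899 CPM (UMIs of the gene per 1000000 UMIs summed over the class) in control T cell-like cells (1159 UMIs) and at 4587 CPM in IMQ T cell-like cells (11783 UMIs), which is 5.10-fold higher (4.81 to 5.43). Il17f, its closest relative, stood at 269 CPM (347 UMIs) and 2361 CPM (6064 UMIs), 8.78-fold higher (7.87 to 9.81). Il22, a cytokine that acts on epithelium and not on leukocytes, stood at 20.9 CPM (27 UMIs) and 1495 CPM (3839 UMIs), 71.4-fold higher (49.0 to 108). Il23r, the receptor chain specific to IL-23, stood at 38.0 CPM (49 UMIs) and 51.0 CPM (131 UMIs), and the interval of its ratio, 0.96 to 1.90, includes equality. A gene was called different between the libraries when it had at least 20 UMIs, at least a 2-fold ratio and an interval that excludes equality. By that rule 3 of the 7 members were called higher in T cell-like cells, where 8.69% of 8910 measured genes were, and 0 were called lower, where 6.17% were.

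**Figure D1:**
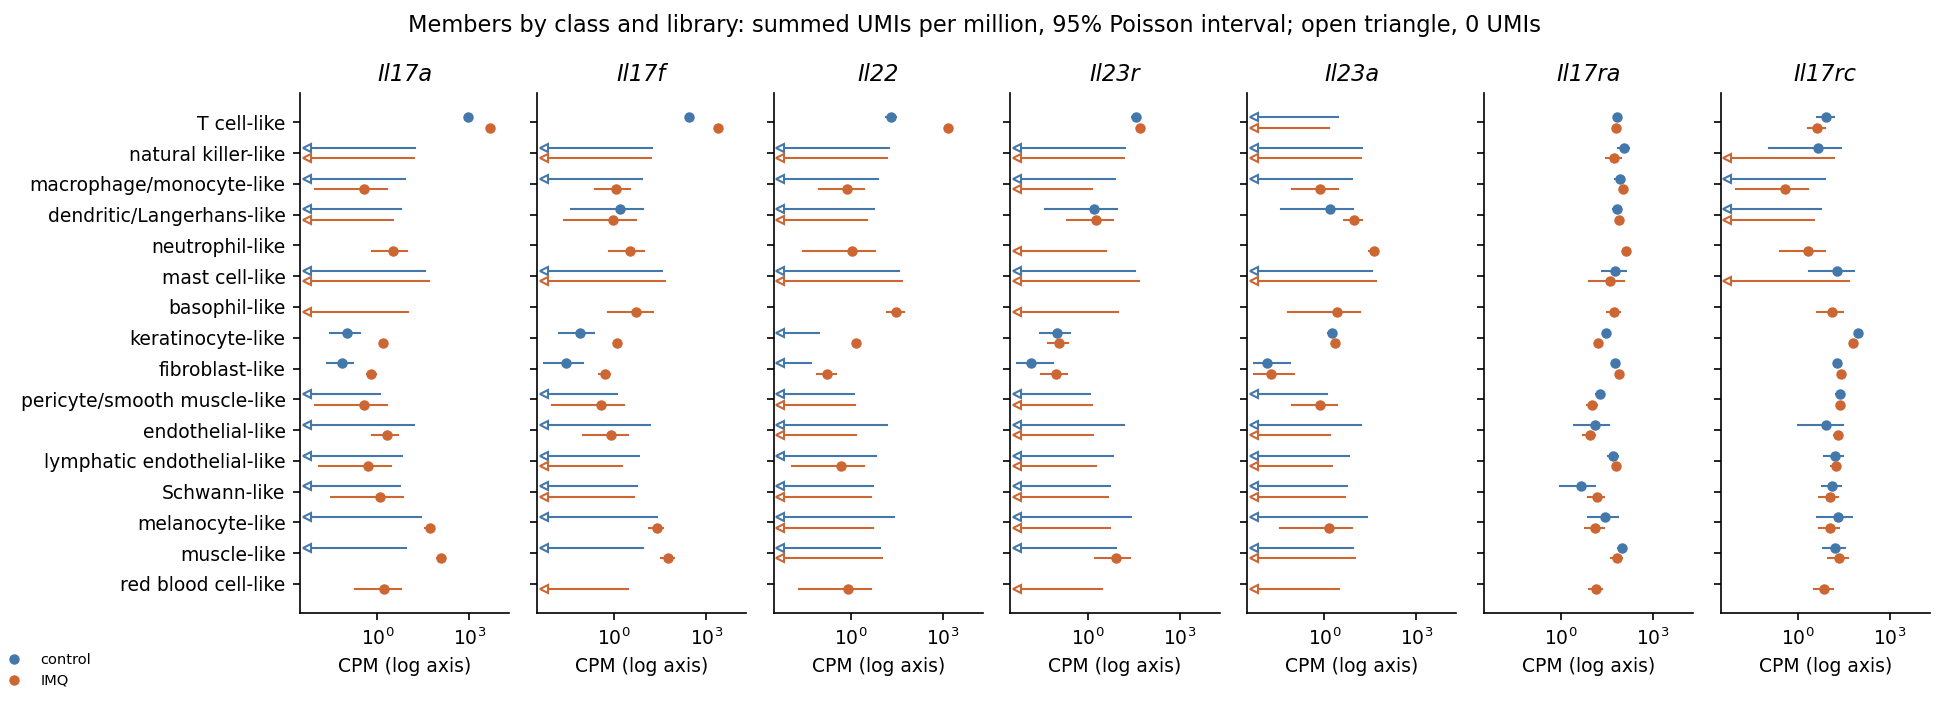
Level of each member by cell class and library, as CPM of the class on a log axis, with exact 95% Poisson intervals. Open triangles mark classes with 0 UMIs, and only classes with at least 30 cells of a library are drawn. Il17a, Il17f, Il22 and Il23r stand highest in T cell-like cells, Il17rc in keratinocyte-like cells, and Il17ra is spread over most classes.

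The T cell-like class was not uniform. Clustered on their own, the lymphoid cells fell into subclusters, and subclusters 1, 5 and 9 held nearly all UMIs of the cytokines. In these 3, 12 or 13 of the 13 fixed markers of type 17 gamma delta T cells were detected, among them Blk, Sox13, Ccr6 and Cd163l1. T cell receptor genes were not found under their symbols in the gene list, so the receptor type could not be read and the cells are called type 17 T-like. There were 140 such cells in the control, 131 of them in subcluster 1, and 238 in the IMQ library, of which 41 were in subcluster 1, 72 in subcluster 5 and 125 in subcluster 9. Each library therefore fills this group from different subclusters, and part of the type 17 T-like comparison is a comparison between subclusters.

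Among type 17 T-like cells Il17a stood at 1983 CPM in the control and at 6556 CPM after imiquimod, a ratio of 3.31 (3.11 to 3.51). A UMI of Il17a was found in 42.1% of the control cells (33.9 to 50.8) and 87.8% of the IMQ cells (83.0 to 91.7), at median depths of 3846 and 6131 UMIs a cell. Keratinocyte-like cells, which are not known to make this cytokine, had a UMI in 0.227% and 1.09% at depths of 17229 and 25986.5. Il17f stood at 595 and 3371 CPM (5.66-fold, 5.08 to 6.33), with a UMI in 37.1% and 82.8% of cells. Il22 stood at 42.9 and 2134 CPM (49.8-fold, 33.7 to 77.0), with a UMI in 4.29% and 40.8% of cells. Il23r stood at 82.4 and 71.9 CPM, a ratio of 0.87 (0.62 to 1.24) that includes equality, with a UMI in 22.9% and 36.6% of cells. The share of Il23r-positive cells was thus higher in the deeper library while the level was not. In these cells 3 members were called higher, against 11.8% of 7534 measured genes, and Il17rc was called lower (10 and 11 UMIs), against 7.71%.

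Within subcluster 1, which both libraries filled, the same direction was seen for the 3 cytokines. Il17a stood at 2241 CPM in the control and at 6332 CPM after imiquimod, a ratio of 2.83 (2.60 to 3.07), below the 5.10-fold of the whole class by more than 1.5 times. Il17f stood at 667 and 4807 CPM (7.21-fold). Il22 stood at 33.4 and 3100 CPM (92.7-fold, 57.4 to 160), and 396 of its 561 IMQ UMIs came from 1 cell. Il23r stood at 86.5 and 111 CPM, again with an interval that includes equality. After each cell was thinned to 2000 UMIs, Il17a was found in 37.4% of the control cells and 64.1% of the IMQ cells of subcluster 1, and Il17f in 30.9% and 61.5%. Il22 was found in 2.44% and 28.2%. In the IMQ library subcluster 9 stood highest for Il17a, at 8676 CPM, with 4608 CPM of Il17f, 2136 of Il22 and 84.7 of Il23r, and subcluster 5 stood at 4838, 2045, 1934 and 53.4 CPM.

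How the transcripts were shared among cells differed between the cytokines and the libraries. In the control type 17 T-like cells the highest cell held 239 Il17a UMIs, 20.7% of the total, and the 10 highest cells held 65.3%. In the IMQ library the highest cell held 2.78% and the 10 highest held 21.8%. Il22 was more concentrated there than Il17a: 1 cell held 560 UMIs, 14.6% of the total, and the 10 highest held 61.7%. Median Il17a over the type 17 T-like cells was 0 in the control and 48.3 UMIs per 10000 in the IMQ library (quartiles 14.2 and 103), and median Il17f was 0 and 21.2.

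The cytokines were often found in the same cell. At 2000 UMIs a cell, Il17f was found in 60.4% of the 48 control cells with Il17a (45.3 to 74.2) and in 13.1% of the 84 without (6.72 to 22.2). After imiquimod the shares were 80.9% of 194 cells with Il17a (74.7 to 86.2) and 14 of 35 cells without. Il22 in the IMQ library was found in 40.9% of the 171 cells with Il17f and in 20.7% of the 58 without. With regard to Il17a the shares of Il22-positive cells were 35.6% and 37.1%, so their intervals overlap. Il23r was found in 13.9% of the IMQ cells with Il17a and 8.57% of those without, also with overlapping intervals.

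The other T cell-like cells had little of these transcripts. Il17a had 3 UMIs in 204 control cells (4.24 CPM) and 26 in 219 IMQ cells (33.5 CPM), of which 24 were in subcluster 8, the CD4 T-like one. Subcluster 2, which carries markers of epidermal gamma delta T cells, had 0 UMIs of Il17a and Il17f in 58 control and 55 IMQ cells. Subcluster 4, with markers of the same list, had 0 in 73 control cells and 1 UMI of each in 118 IMQ cells. Il17f was at 0 in the other control T cell-like cells and at 20 UMIs in the IMQ ones, at least 6.08-fold higher when the control is set at a floor of 3 counts over the group.

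Genes of the type 17 lymphocyte programme were examined in the type 17 T-like cells with the members left aside. Of 22 genes measured, 4 were called higher, 1 lower and 17 neither, where 11.8% of all genes were higher and 7.71% lower. The median log2 ratio of the 22 was 0.30, against 0.12 over all measured genes. The 4 were Cd163l1 (scavenger receptor SCART1, 3.57-fold), Ltb4r1 (leukotriene B4 receptor, 2.44-fold), Batf (an AP-1 partner of type 17 differentiation, 2.00-fold) and Sox13 (a lineage factor of gamma delta T17 cells, 2.00-fold). The interleukin 18 receptor gene Il18r1 was 2.73-fold lower. Ccr6 stood at 96.1 CPM in the control and 53.5 in the IMQ library, Il1r1 at 142 and 210, and Blk at 127 and 232, none of them past the 2-fold rule. The chain that pairs with IL-23R, Il12rb1, stood at 10.9 and 17.9 CPM in T cell-like cells, where its interval also includes equality.

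Outside the T cell-like class, UMIs of the cytokines were rare and lay mostly in cells that also had Cd3 transcripts. After imiquimod 74 cells outside the class held 509 Il17a UMIs, and 449 of these were in 15 cells with at least 3 UMIs, 14 of them with a Cd3 UMI. In the control 6 cells had at least 3 UMIs and all 6 had Cd3. The unnamed subclusters, in which at least 25% of cells were called doublets, held 6.56% of the control and 2.25% of the IMQ Il17a UMIs. In keratinocyte-like cells 3 members were called higher, Il17a (4 and 106 UMIs), Il17f (3 and 84) and Il22 (0 and 102), where 10.2% of 14389 genes were. In the IMQ cells 85 of those Il17a UMIs lay in 4 cells, all with Cd3, as did 67 of the Il17f UMIs in 4 cells and 87 of the Il22 UMIs in 3. Cd3 was found in 0.772% of all IMQ keratinocyte-like cells. In these cells Il17a stood at 1.55 CPM and Il17f at 1.23 CPM. An estimate of free RNA from markers of other classes gives the higher values of 3.90 and 2.02 CPM. Il22 stood at 1.49 CPM (1.22 to 1.81), an interval that includes its estimate of 1.31 CPM. In fibroblast-like cells Il17a (5 and 34 UMIs) and Il17f (2 and 26) were called higher, where 11.3% of 14644 genes were. Both stood below the free-RNA level, at 0.635 against 1.85 CPM and 0.485 against 0.958 CPM. A muscle-like cell with 43 Il17a UMIs and a melanocyte-like cell with 35 both had Cd3. A basophil-like cell with 11 Il22 UMIs also had Cd3. After thinning only the 3 calls in T cell-like cells were left of these 8.

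Il23a, the p19 chain of IL-23, was found in other cells than its receptor. It had 70 UMIs in the control and 212 in the IMQ library and 0 in T cell-like cells of both. In the control 68 of the 70 lay in keratinocyte-like cells (1.72 CPM). In the IMQ library 148 lay in keratinocyte-like cells (2.16 CPM), 39 in neutrophil-like cells (41.3 CPM, 29.4 to 56.5), 10 in dendritic/Langerhans-like cells and 8 in 1 unnamed cell. In keratinocyte-like cells the ratio was 1.25 (0.94 to 1.70), which includes equality. When the libraries were clustered separately it was 0.43 in place of 0.33 on the log2 scale, and its interval, 0.01 to 0.86, did not include it. A UMI was found in 3.01% of the control and 5.68% of the IMQ keratinocyte-like cells, and in 0.0578% and 0.465% once thinned. Fibroblast-like cells, which had 1 UMI in each library, serve as the background.

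The keratinocyte-like Il23a transcripts were unevenly spread over the clusters. In the control cluster 16, led by Krt5, Krt15 and Krt14, stood at 3.70 CPM (2.70 to 4.96), and cluster 6, led by Krt77 and Krt10 of the upper layers, had 0 UMIs in 367 cells. Among the IMQ clusters, 23 and 27, where Krt14 and Krt5 are among the leading genes, stood at 3.38 and 3.37 CPM, and 24, with Krt16 and Krt1, at 0.771 CPM. Cluster 17, also led by basal keratins (Krt15 and Krt5), stood at 0.166 CPM there. Krt5 was present in 51 of the 53 control and 118 of the 125 IMQ cells with Il23a. In cluster 23, filled by both libraries, the level was 2.97 CPM on 4 UMIs in the control and 3.38 CPM on 72 UMIs in the IMQ library.

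The myeloid classes together had 1 Il23a UMI in the control and 51 in the IMQ library (0.885 and 10.7 CPM, 12.1-fold, 2.08 to 488), a ratio that rests on that 1 control UMI. The makeup of these classes moved too, with 7 neutrophil-like cells in the control and 287 in the IMQ library, and its part in the difference was not tested. The 39 neutrophil-like UMIs lay in 12 cells, and at most 11 UMIs lay in 1 cell. All 12 had S100a8 and Il1b transcripts, which 284 and 285 of all 287 neutrophil-like cells had, and S100a8 was also found in 1419 of the 2202 IMQ keratinocyte-like cells. The neutrophil markers Csf3r and Retnlg were found in 6 and 4 of the 12, against 226 and 222 of the 287. The 10 dendritic/Langerhans-like UMIs lay in 2 cells. Il12b encodes the p40 chain that IL-23 needs. Among the named classes it was found in dendritic/Langerhans-like cells alone: 14 UMIs in 3 control cells (21.9 CPM) and 95 UMIs in 7 IMQ cells (85.6 CPM). In those classes a single cell, a dendritic/Langerhans-like one of the IMQ library, had both Il23a and Il12b. None of the keratinocyte-like or neutrophil-like cells with Il23a had Il12b.

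**Figure D2:**
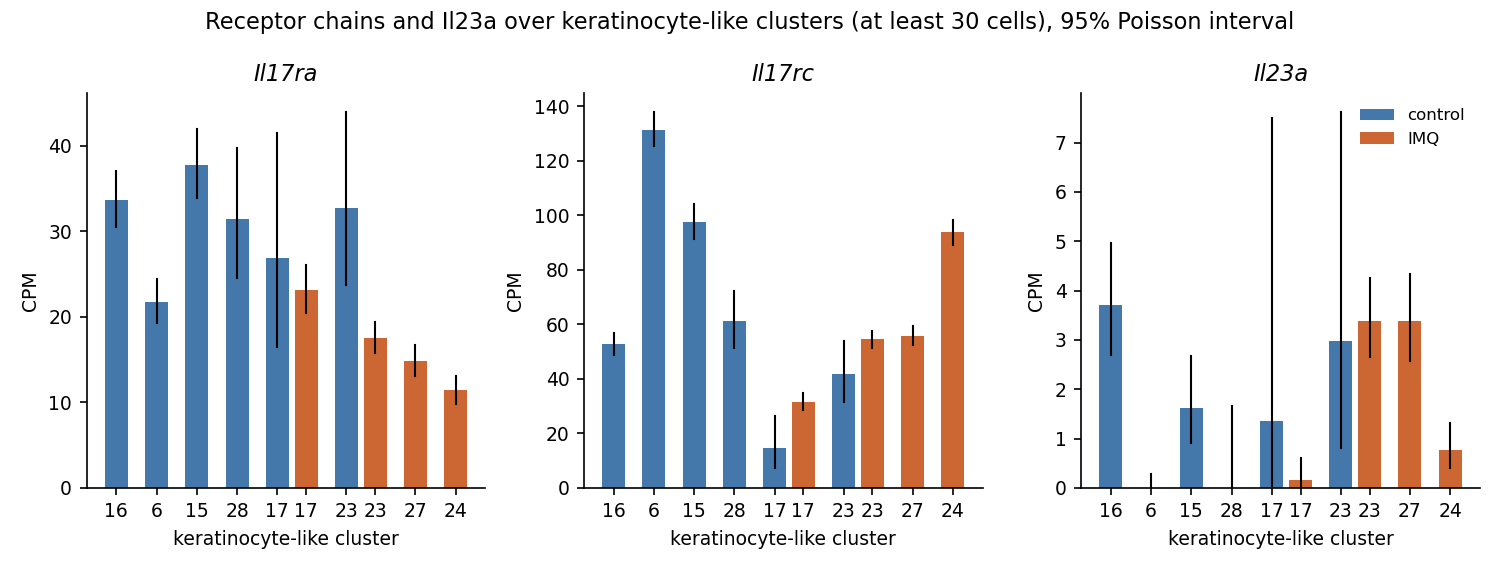
Level of Il17ra, Il17rc and Il23a in keratinocyte-like clusters with at least 30 cells of a library, as CPM with exact 95% Poisson intervals. Clusters 16, 6, 15 and 28 are control clusters, 27 and 24 are IMQ clusters, and 17 and 23 hold both. Il17rc stands highest in cluster 6 among the control clusters and in 24 among the IMQ clusters, at 131 and 93.7 CPM.

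Il17ra, the shared signalling chain of the IL-17 receptors, was found in stromal, epidermal and immune cells. Fibroblast-like cells held 72.5% of its UMIs in the control and 66.2% in the IMQ library, and keratinocyte-like cells 20.7% and 18.1%. After imiquimod neutrophil-like cells stood at 128 CPM and macrophage/monocyte-like cells at 105, with overlapping intervals, and both lay above the next, fibroblast-like cells at 76.1 CPM. Dendritic/Langerhans-like cells at 75.7, muscle-like cells at 66.9, T cell-like cells at 60.3 and lymphatic endothelial-like cells at 59.7 CPM followed without a separation from their neighbours, and keratinocyte-like cells stood at 16.3 and endothelial-like cells at 8.46 CPM. In the control 8 classes followed each other without a separation of neighbours, and only neighbours in the order were compared. They were natural killer-like cells at 114 CPM, muscle-like cells at 97.9, macrophage/monocyte-like cells at 83.0 and dendritic/Langerhans-like cells at 68.8. Then came T cell-like cells at 67.5, mast cell-like cells at 57.8, fibroblast-like cells at 56.6 and lymphatic endothelial-like cells at 49.6. Below them, and apart from the last of them, stood keratinocyte-like cells at 30.03 CPM. Melanocyte-like cells at 27.5, pericyte/smooth muscle-like cells at 17.8, endothelial-like cells at 12.4 and Schwann-like cells at 4.36 followed. Fibroblast-like cells stood 1.89-fold above keratinocyte-like cells in the control and 4.68-fold in the IMQ library.

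Between the libraries Il17ra was 1.34-fold higher in IMQ fibroblast-like cells (1.29 to 1.40) and 1.85-fold lower in IMQ keratinocyte-like cells (1.70 to 2.00). It differed by less than counting error in T cell-like, macrophage/monocyte-like, dendritic/Langerhans-like and lymphatic endothelial-like cells. In pericyte/smooth muscle-like cells it was 1.74-fold lower (1.08 to 2.85). In natural killer-like cells it was 2.12-fold lower, on 25 and 13 UMIs (1.05 to 4.52). A UMI was found in 34.2% of control and 51.0% of IMQ fibroblast-like cells at median depths of 9450 and 13232 UMIs, and in 11.0% and 13.3% once thinned to 2000 UMIs. In keratinocyte-like cells the shares were 44.2% and 34.5%, and 6.59% and 3.81% once thinned. Endothelial-like cells, the class with the lowest level in the IMQ library, had a UMI in 11.9% of cells there at a depth of 15859 UMIs.

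Il17rc, the chain that completes the receptor for IL-17A and IL-17F, was narrower. Keratinocyte-like cells held 69.3% of its UMIs in the control and 71.5% in the IMQ library, at 88.5 and 60.4 CPM, above every other class in both libraries. Fibroblast-like cells held 28.2% and 24.5%, at 19.4 and 26.4 CPM, near pericyte/smooth muscle-like cells at 22.8 and 24.2 CPM. Keratinocyte-like cells stood 4.57-fold above fibroblast-like cells in the control and 2.29-fold in the IMQ library. A UMI was found in 65.9% of control and 64.4% of IMQ keratinocyte-like cells, and in 15.1% and 10.6% once thinned. In fibroblast-like cells the shares were 17.7% and 29.5%, and 4.30% and 4.91% once thinned. In leukocytes few UMIs were found: macrophage/monocyte-like cells had 0 UMIs in the control and 1 in the IMQ library, dendritic/Langerhans-like cells had 0 in both, and neutrophil-like cells of the IMQ library had 2. Among macrophage/monocyte-like cells of the IMQ library a UMI was thus found in 0.193% of 517 cells at a depth of 4379 UMIs. T cell-like cells had 11 UMIs in each library. No member was called in macrophage/monocyte-like cells (background 5.57% of genes higher and 9.56% lower), dendritic/Langerhans-like cells (7.5% and 4.19%), pericyte/smooth muscle-like cells (7.66% and 6.66%), endothelial-like cells (10.6% and 7.85%) or lymphatic endothelial-like cells (5.32% and 2.58%).

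The class sums of Il17rc differed by less than 2-fold between the libraries, 1.46-fold lower in IMQ keratinocyte-like cells (1.40 to 1.53) and 1.36-fold higher in IMQ fibroblast-like cells (1.27 to 1.47). No member was called lower in keratinocyte-like cells, where 12.2% of genes were, or in fibroblast-like cells, where 4.05% were. Both chains were found in few cells at equal depth: at 2000 UMIs a cell, 0.464% of control and 0.749% of IMQ fibroblast-like cells had a UMI of each, and 0.925% and 0.605% of keratinocyte-like cells did. The median of all measured genes in fibroblast-like cells was itself 0.27 higher in the IMQ library on the log2 scale. Against that shift the log2 ratio of Il17ra falls from 0.43 to 0.16 and that of Il17rc from 0.45 to 0.18.

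The 2 receptor chains behaved differently within clusters than in the class sums. Of the fibroblast-like clusters, 8 held at least 30 cells of both libraries, with 54.1% of the control and 65.1% of the IMQ cells of the class. Il17ra was lower in the IMQ library in 7 of these 8, in 4 with an interval that excludes equality, and its mean log2 ratio over them was -0.47 (range -1.12 to 0.01), opposite in sign to the class. In cluster 0, led by Cxcl13 and Prg4, it stood at 104 CPM in the control and 47.8 in the IMQ library, and in cluster 13 at 135 and 97.6. In the Pi16-led cluster 7 it stood at 97.7 and 98.4 CPM. The remaining cells lay in clusters of mostly 1 library: the control clusters 2, 4 and 5 stood at 44.5, 18.7 and 20.6 CPM, and the IMQ cluster 3, led by Prg4, Cpxm1 and Saa3, at 91.3 CPM. Il17rc was higher in the IMQ library in 7 of the 8 shared clusters, in 1 with an interval that excludes equality (cluster 0, 8.23 and 26.4 CPM), with a mean log2 ratio of 0.37 and a median of 0.20. Cluster 0 rests on 5 control UMIs, and without it the mean is 0.18. A cluster mostly of 1 library cannot be told apart from that library.

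Of the keratinocyte-like clusters, 17 and 23 held at least 30 cells of both libraries, with 7.50% of the control and 60.0% of the IMQ cells of the class. Il17ra was lower in the IMQ library in both, 26.9 and 23.1 CPM in cluster 17, where Krt15 and Lhx2 are among the leading genes, and 32.7 and 17.5 CPM in cluster 23. Il17rc was higher in the IMQ library in both, 14.8 and 31.6 CPM in cluster 17 (2.13-fold) and 41.6 and 54.5 CPM in cluster 23, and the mean log2 ratio of 0.74 is opposite in sign to the class. Cluster 17 rests on 11 control UMIs, and cluster 23 alone gives 0.39. For Il17ra the mean was -0.56, and cluster 17 alone gives -0.22. Between clusters picked for their layer keratins, the Il17rc level also differed within each library. Control cluster 6 with upper-layer keratins stood at 131 CPM (125 to 138) and control cluster 16 with basal keratins at 52.8 CPM. Of the IMQ clusters, 24, with Krt16, Krt1 and Krt6a, stood at 93.7 CPM and 27, with Krt14 and Krt5, at 55.7 CPM. Il17ra ran the other way in the same clusters, 21.7 CPM in cluster 6 and 33.7 in cluster 16, 11.4 in cluster 24 and 14.8 in cluster 27. Not every cluster followed that order. Control cluster 15, with Krt79, Krt1 and Krt10 among its leading genes, stood highest of the control clusters for Il17ra, at 37.8 CPM.

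**Figure D3:**
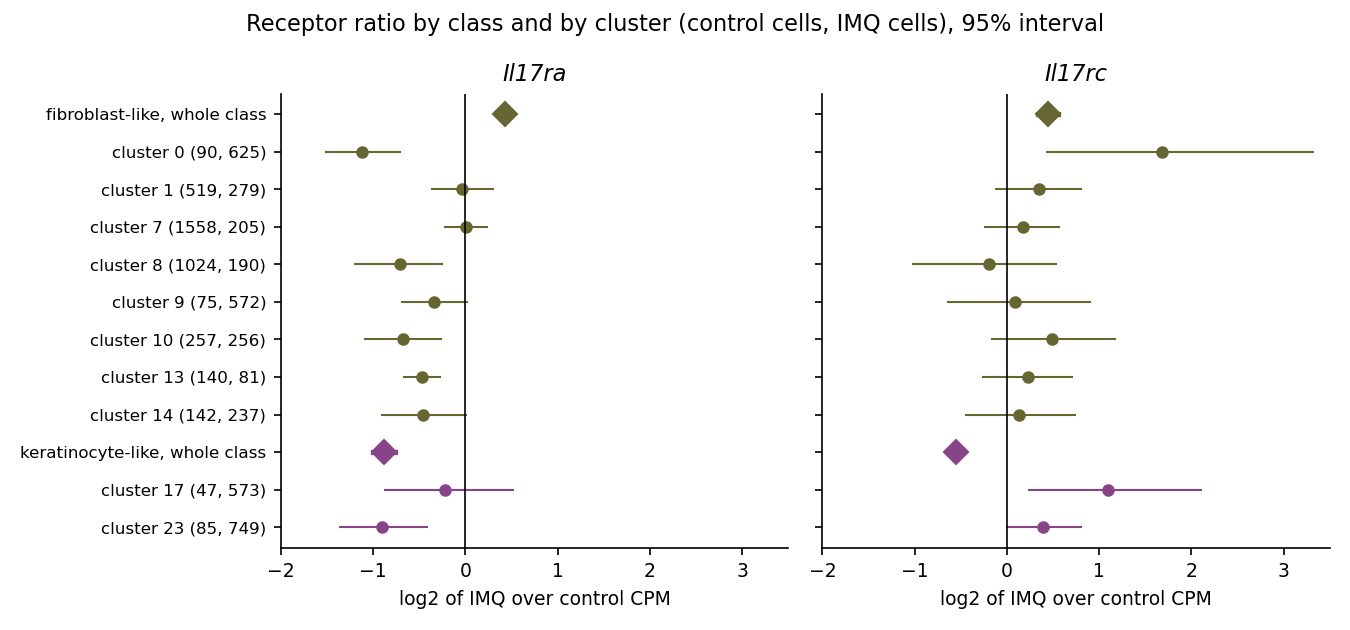
Ratio of the IMQ over the control level of Il17ra and Il17rc on the log2 scale, for the whole class (diamonds) and for each cluster with at least 30 cells of both libraries (circles), with exact 95% intervals. Cell numbers are given as control, then IMQ. For Il17ra in fibroblast-like cells and Il17rc in keratinocyte-like cells the diamond and most or all circles lie on opposite sides of 0.

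Among the other ligands and receptor chains of these families, few were measured in each class. In T cell-like cells 4 of 14 were measured: Il17re, the partner of IL-17RA for IL-17C, was 2.97-fold higher (12 and 71 UMIs), Il12rb2, the second chain of the IL-12 receptor, was 3.84-fold lower, and 2 were neither. Over all genes of that class 8.69% were higher and 6.17% lower. In keratinocyte-like cells 10 were measured, 1 higher and 2 lower, where 10.2% and 12.2% of all genes were. Il17b was 13.5-fold higher (9 and 211 UMIs) and Il12rb2 42.1-fold lower (170 and 7). Il22ra2, which encodes a soluble decoy receptor that binds IL-22, was 17.7-fold lower (12.8 to 25.3), from 10.1 to 0.570 CPM. Of its 399 control UMIs 297 lay in cluster 16, which has 1 IMQ cell, and in the shared cluster 23 it stood at 3.72 CPM on 5 UMIs and 0.470 CPM on 10. Il22ra1, the signalling receptor of IL-22, had 21 and 25 UMIs in keratinocyte-like cells and 1 UMI in all fibroblast-like cells. Il10rb, its partner, stood at 4.31 and 5.35 CPM in keratinocyte-like cells. Il17c had 1 UMI in all. In fibroblast-like cells 6 were measured, with Il12a (13 and 31 UMIs) and Il22ra2 (12 and 27) higher and 4 neither. Over all genes there 11.3% were higher and 4.05% lower.

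Most of the adaptors and kinases below the receptors were not called. Of 17 measured in fibroblast-like cells 0 were called, where 11.3% of all genes were higher and 4.05% lower. In macrophage/monocyte-like cells 0 of 15 were called, against 5.57% higher and 9.56% lower. In keratinocyte-like cells Traf5, a partner of Act1, was 6.18-fold lower and the other 16 were neither. Over all genes of the class 10.2% were higher and 12.2% lower. In shared cluster 23 Traf5 was 4.65-fold lower in the IMQ library. In shared cluster 17 Traf5 had 3 and 92 UMIs and a ratio of 1.89 (0.63 to 9.33) that includes equality. Traf3ip2, which encodes Act1, stood at 17.6 and 16.1 CPM in keratinocyte-like and 13.3 and 16.9 CPM in fibroblast-like cells. In T cell-like cells 18 were measured: Ikbkg was 4.02-fold higher (3 and 24 UMIs), Traf3ip2 2.19-fold lower (22 and 20 UMIs), Jak2 2.06-fold lower and 15 neither. The shares over all genes there were 8.69% higher and 6.17% lower. Of 11 feedback and mRNA stability regulators, Socs3, a brake on STAT3 signalling, was 2.72-fold higher and Tnfaip3 (A20) 2.38-fold lower in keratinocyte-like cells. Within the shared clusters 17 and 23 Socs3 was 1.83-fold and 1.88-fold higher. Tnfaip3 was 2.19-fold higher in cluster 17 (1.51 to 3.32). In cluster 23 the Tnfaip3 ratio was 0.91 (0.74 to 1.13), which includes equality. In macrophage/monocyte-like cells 4 of the 11 were higher, where 5.57% of all genes were. They were Tnip1 (3.45-fold), Socs3 (2.64-fold), Tnfaip3 (2.58-fold) and Nfkbia (2.46-fold). In fibroblast-like and T cell-like cells 0 of 11 were called.

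Most measured genes known to respond to IL-17 and IL-22 were higher in IMQ keratinocyte-like, fibroblast-like, macrophage/monocyte-like and T cell-like cells. Other signals also raise them, and the cause was not tested. In keratinocyte-like cells 28 of 34 were called higher and 2 lower, where 10.2% and 12.2% of all genes were. The median log2 ratio of the 34 was 3.30, against 0.00 over all measured genes. The highest were S100a8 (11.39) and S100a9 (8.25), the chains of calprotectin, Il24 (7.39), a cytokine of the IL-20 group, and the beta-defensin Defb14 (6.95). The lowest were the protease gene Mmp3 (-1.22) and the chemokine Ccl7 (-1.04), both called lower, then the chemokine Ccl20 (-0.82) and Il6 (-0.76), which were not called. In fibroblast-like cells 18 of 29 were called higher and 1 lower, where 11.3% and 4.05% of all genes were. The median of the 29 was 3.37 against 0.27. Saa1 (9.76), Saa3 (9.56) and Saa2 (7.04), acute-phase serum amyloid genes, and S100a9 (7.08) were highest. Fibroblast-like S100a9 stood at 18.4 CPM in the IMQ library, below the 46.6 CPM expected from free RNA. Ccl20 (-2.25) was called lower, while Lif (-0.90), S100a7a (-0.77) and Ccl2 (0.00) were not called. Macrophage/monocyte-like cells had 14 of 19 higher and 1 lower (5.57% and 9.56% of all genes), and their Il17rc UMIs numbered 0 and 1. T cell-like cells had 10 of 16 higher and 1 lower (8.69% and 6.17% of all genes), with S100a9 at 112 CPM where free RNA would give 97.5. Within the shared clusters, 13 of 21 were higher in keratinocyte-like cluster 17 and 0 lower, where 3.32% and 3.46% of all genes were. In cluster 23, 17 of 29 were higher and 4 lower, where 4.40% and 7.95% of all genes were. The medians in clusters 17 and 23, 1.93 and 1.15, were below that of the class. In the 8 shared fibroblast-like clusters between 7 and 18 of 14 to 22 measured were higher and between 0 and 5 lower. Over all genes of these clusters 3.63% to 12.6% were higher and 2.16% to 3.96% lower. The medians of the response genes ran from 0.25 in cluster 7 (8 higher and 4 lower of 18) to 3.77 in cluster 1 (18 higher and 1 lower of 22). Cluster 9 had 7 higher and 5 lower of 19. Where S100a9 was among the genes called higher in these fibroblast-like clusters, it stood at 15.9 to 28.8 CPM in the IMQ library. Those levels are also below the 46.6 CPM of free RNA estimated for the class.

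Over 29 points, each a class of at least 30 cells in 1 library, the genes most like each member in log2(CPM + 1) were named from 14632 candidates. Points of 1 library share its depth and free RNA, and the correlations are descriptions. For Il17a they were Cd163l1 (Pearson r 0.97), Il17f (0.97) and Il23r (0.89), and for Il17f they were Il17a (0.97), Cd163l1 (0.97) and Il23r (0.90). Il22 was most like Blk (0.88), Actn2 (0.86) and 5830411N06Rik (0.86), and Il23r like Cd163l1 (0.92), Avil (0.91) and Il17f (0.90). Il17ra was most like Birc3 (0.80), Evi2a (0.79) and Nfkb1 (0.76), Il17rc like S100a16 (0.91), Nfib (0.87) and Nckap1 (0.87), and Il23a like Cxcr2 (0.80), Ltf (0.80) and A530032D15Rik (0.79).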

How the data were processed

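The authors deposited, for each library, a matrix of raw UMI counts per gene and barcode with its gene and barcode lists. Per the file headers the matrices were written by Cell Ranger 5.0.0. The submitters' processing notes list Cell Ranger 3.0.2, Seurat 2.0 and the genome build mm10. The annotation behind the counts and how reads shared by similar genes were counted are not given in the sources used here. No listed barcode had under 500 UMIs.

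Cells with at least 200 genes and at most 10% mitochondrial UMIs were kept. Counts were scaled to 10000 a cell and log-transformed. All cells were clustered jointly by the Leiden method (resolution 1, 15 neighbours, 30 principal components of 2000 variable genes, the 7 members left out; scanpy 1.11.5, Python 3.11.15). Immune cells were then clustered again, which gave 57 clusters. Naming a cluster took 3 or more markers of a class, each seen in 10% or more of the cells and 2-fold over the median cluster, and subclusters with at least 25% of called doublets stayed unnamed (61 control and 45 IMQ cells). Of 347 listed markers 11 were not found. Lymphoid subtypes were given by the list with most detected markers, a rule chosen after seeing the data. Scrublet called 422 control cells (4.10%) and 110 IMQ cells (1.29%) doublets. They were kept in the values, and removed in an alternative.

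UMIs were summed by class and library and given as CPM of the class, with exact Poisson intervals. Ratios have exact conditional binomial intervals and shares exact Clopper-Pearson intervals (scipy 1.17.1). UMIs behind a ratio against 0 were set at a floor of 3 counts. The free-RNA level was estimated from other classes' markers. The calculation was tested on simulated counts. Promoters and their letters were read from RefSeq. Named genes were all members, up to 4 measured genes with the highest and 4 with the lowest ratio of each list, and the 3 genes most like each member with at least 100 UMIs. Genes outside that rule (Il12b in cells with Il23a, Il22ra2 by cluster, Il1b and other markers of single cells) were chosen after their values were seen. One listed gene is counted in its list and not reported here. Members and lists were chosen with earlier results of these data known. Alternatives were removal of doublets, a marker score for each cell, clustering of each library alone or at a resolution of 0.5, leaving all listed genes out of the variable genes, a minimum of 500 genes, subtraction of free RNA, thinning to 2000 UMIs, means over cells, leaving out the highest cell and scaling to the median ratio.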

Additional observations from a re-analysis of the deposited data

Results flagged for a closer look

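The receptor chains differed between the libraries in opposite directions in fibroblast-like and keratinocyte-like cells. In fibroblast-like cells Il17ra was higher in the IMQ library, by 0.43 on the log2 scale, and in keratinocyte-like cells it was lower, at -0.88. Il17rc was likewise higher in fibroblast-like cells, by 0.45, and lower in keratinocyte-like cells, at -0.55. With 1 library a group the difference between the cell classes was not tested. Within clusters filled by both libraries the opposition was not seen: Il17ra was lower in the IMQ library in both classes, with mean log2 ratios of -0.47 and -0.56, and Il17rc was higher in both, at 0.37 and 0.74 (0.18 in fibroblast-like cells without cluster 0). The keratinocyte-like means rest on 2 clusters with 7.50% of the control cells of the class. Without cluster 17 the Il17rc mean is 0.39, and without cluster 23 the Il17ra mean is -0.22. Another stromal class, pericyte/smooth muscle-like cells, stood lower for Il17ra in the IMQ library, at 10.3 against 17.8 CPM.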

How the results depend on the processing

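No paired analysis was possible because each group has 1 library. The mean over clusters filled by both libraries, lymphoid subcluster 1 alone, Il23a in keratinocyte-like cells and means without 1 cluster were chosen after seeing the data. Over shared clusters Il17ra in fibroblast-like cells turned from 0.43 to -0.47 and Il17rc in keratinocyte-like cells from -0.55 to 0.74 (log2), and Il17ra in keratinocyte-like cells moved from -0.88 to -0.56, with only the cells of those clusters entering. The other log2 values that moved were Il17a in T cell-like cells, from 2.35 to 2.07 with each library clustered alone, 2.12 thinned, 2.06 as a mean over cells, 2.64 without the highest cell and 1.498 in subcluster 1, and Il17f, from 3.13 to 2.85, 2.94, 2.97, 3.29 and 2.85 in the same order. In fibroblast-like cells Il17ra moved to 0.26 thinned, 0.20 as a mean over cells and 0.16 scaled to the median ratio, and Il17rc to 0.18 thinned and 0.18 scaled. Il22 ranged from 5.79 to 6.54 and Il23r from 0.13 to 0.50, the last without the highest cell and with an interval just above 0. Myeloid Il23a reached 4.92 as a mean over cells. Thinned (1.30) and without the highest cell (1.66) its control is at 0, so these are lower bounds at the floor of 3 counts. Il23a in keratinocyte-like cells was -0.26 as a mean over cells. Members called higher fell from 8 to 3 when thinned. The lymphoid share of UMIs in control and IMQ cells moved to 97.7% and 97.5% (Il17a), 96.4% and 97.5% (Il17f) and 100% and 96.0% (Il22) with doublets removed. With a marker score for each cell it was 83.3% and 95.2% (Il17a), 83.4% and 94.1% (Il17f) and 86.6% (Il22, IMQ). Thinned it was 97.9% and 98.6% (Il17a), 95.5% and 98.4% (Il17f) and 98.1% (Il22, IMQ). Il22 in the IMQ library was at 87.2% with each library clustered alone and 91.5% without the highest cell, and Il17a in the control at 91.0% without it. In all 134 values, these ranges included, stayed inside the counting interval of the main value or, for numbers of called members, near it. Free RNA subtracted moved none past it. The number of called members was not run as a mean over cells or with free RNA subtracted, which give no interval here, and thinned keratinocyte-like Il23a and control Il22 shares had too few UMIs. The cause of each move was not tested. Low counts limit Il23r, Il22 in the control and Il23a, and the absence of replicate libraries limits every ratio.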
